A study of Oryza sativa Japonica Group with 36 samples.

Results

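The 6 genes described here encode small heat shock proteins of rice: OsHsp16.0, OsHsp17.8, OsHsp18.6, OsHsp21.9, OsHsp24.1 and OsHsp26.2. They were listed by name and had been chosen on measured intensities of these same arrays, with earlier results known, and each was found by its symbol or synonym in the gene tables. All 6 had a probe set, 9 probe sets in all, of 57381 on the array, and a gene with several was represented by the brightest on average. Besides these, 13 other small heat shock protein genes could be measured of 16 named in the table.

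The arrays were of shoots of C418, a japonica restorer line that is sensitive to cold, and of K354, a BC2F6 introgression line that tolerates cold better, bred from recurrent parent C418 and the indica variety Bg300. Seedlings at the three-leaf stage were kept at 25 °C (control) or held in the cold, at 4 °C, with sampling after 2, 6, 12, 24 and 48 h. Each of the 12 groups had 3 arrays, 36 in total, each from a separate pot. For the control of a line the authors combined shoots taken at 2 h with shoots taken at 24 h, so they match no single time in the cold, and the same 3 control arrays enter all 5 cold comparisons of that line. K354 is 1 line, so the effects of any donor segments it carries cannot be told apart. In whole shoots, a lower value because of fewer cells of a type and one because of less RNA per cell cannot be told apart.

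Small heat shock proteins are chaperones that share an alpha-crystallin domain and work without ATP. They assemble into oligomers, bind proteins that are unfolding and hold them in a soluble state until chaperones that use ATP, of the HSP70 and HSP100 families, refold them. In plants they form classes by compartment, from the cytosol to chloroplasts, mitochondria, the endoplasmic reticulum and peroxisomes, and most are best known for their strong induction by heat through heat stress factors.

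Values were intensities on a linear scale. The tissue label was checked with 5 genes of photosynthesis, whose group means ranged from 10.71 to 13.84 on the log2 scale, against array medians of 5.80 to 6.09. The seed glutelin gene GLUA1 had group means of 2.99 to 3.47, whereas the probe set assigned to GLUA2, another glutelin, reached 9.83. The gene found under the synonym GLB1, whose identity as a seed globulin the tables do not settle, had 8.11 to 10.19, and root markers were not used here. Control RNAs added to the samples became brighter relative to the rice probe sets with hours of cold. From the control arrays to those at 48 h, the 27 hybridization controls moved up by 0.81 on the log2 scale in C418 and 0.67 in K354, and the 42 poly-A controls by 1.30 and 1.20. At 2 h the same shifts were 0.07 and 0.06 for the hybridization controls and 0.01 and -0.05 for the poly-A controls. Cold changes are therefore given on the deposited scale and, where the sign depends on it, on the scale of those controls too.

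Before the cold, OsHsp24.1 and OsHsp16.0 were far brighter than the median of their arrays, and both had lost most of their signal by 2 h at 4 °C in both lines. OsHsp18.6 declined more slowly, OsHsp17.8 and OsHsp21.9 stayed close to or under the median of the array in every group, and OsHsp26.2 lay above its control at every time in C418 and below it at all times except 24 h in K354. Of 60 cold changes (6 genes, 5 times, 2 lines), 20 were more than 5-fold lower than the control, 10 of OsHsp16.0 and 10 of OsHsp24.1, and 0 were more than 5-fold higher. Among all 57258 probe sets, the percentage more than 5-fold lower in C418 was 0.0786 at 2 h, 0.0995 at 6 h, 0.197 at 12 h, 0.341 at 24 h and 1.01 at 48 h. In K354 it was 0.0803, 0.126, 0.19, 0.314 and 0.568 at the same times. The genes were chosen with these cold responses in view, so the cold changes are described with their standard errors (SE, from limma) and without p-values. The smallest change inside the 5-fold limit was the 5.82-fold lower level of OsHsp24.1 in K354 at 48 h, and the largest outside it was the 4.02-fold lower level of OsHsp18.6 in K354 at 48 h.

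**Figure D1:**
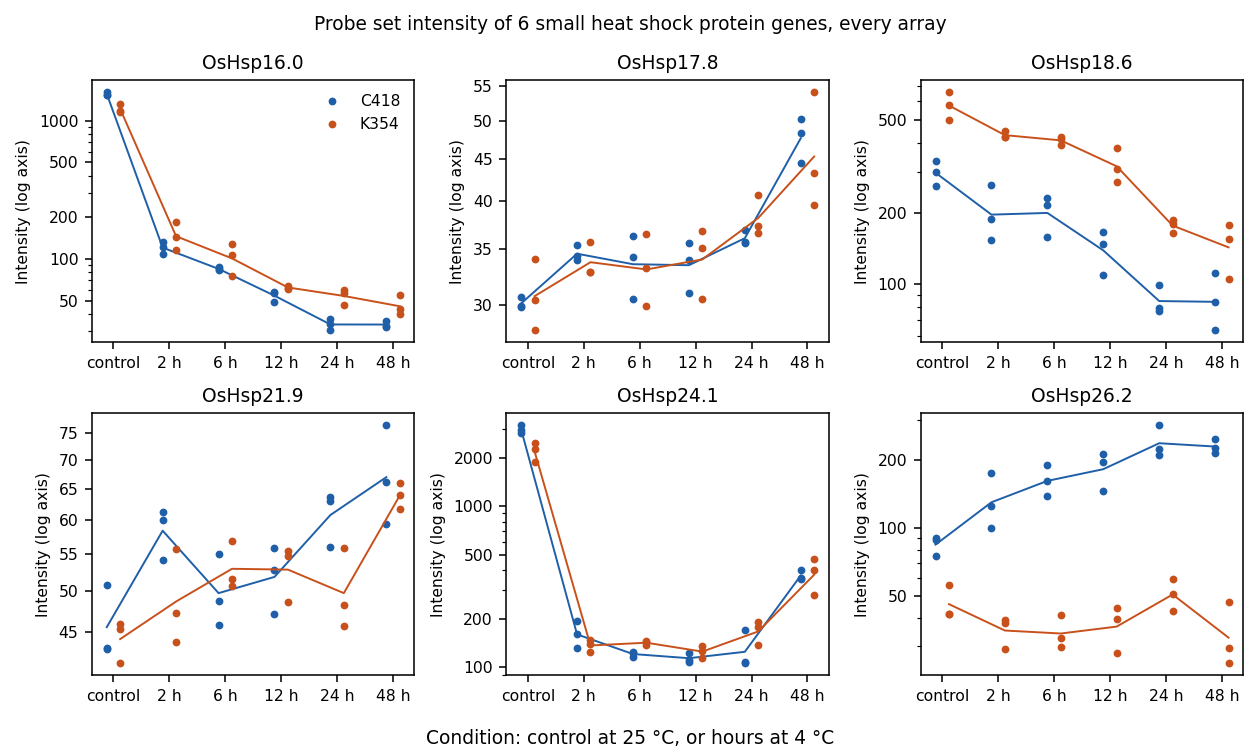
Intensity (log axis) of the brightest probe set of each gene in every array, by condition, with C418 in blue and K354 in orange. Points are single arrays and lines join the geometric means of 3 arrays. The control arrays of OsHsp16.0 lie between 1164 and 1615 and its cold arrays between 30.6 and 186, while OsHsp26.2 is higher in C418 than in K354 in all 6 conditions.

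OsHsp24.1 encodes a small heat shock protein of mitochondria. Its intensity in the 3 control arrays was 2824, 2976 and 3164 in C418 and 1863, 2264 and 2473 in K354. After 2 h at 4 °C it was 133, 161 and 193 in C418 and 125, 139 and 147 in K354. Each array taken in the cold therefore lay below each control array, and the 30 cold arrays together ranged from 106 to 468.

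The log2 change of OsHsp24.1 was -4.22 (SE 0.17) in C418 and -4.00 (SE 0.17) in K354 at 2 h. As deposited, the lowest group mean was reached at 12 h in both lines. The intensities were then 108, 112 and 123 in C418 and 115, 126 and 137 in K354. On the scales of the hybridization and poly-A controls the lowest change in C418 was at 24 h, at -5.06 and -5.51. At 12 h it was -4.96 and -5.28 there. As deposited, part of the signal had come back by 48 h. At 48 h the mean was 372 ± 25.9 (SD, n = 3) in C418, with a highest array of 402, and the arrays of K354 read 280, 404 and 468, all above every array from 2 to 24 h, the highest of which was 193. The deposited level at 48 h minus that at 2 h was 1.21 (SE 0.17) on the log2 scale in C418 and 1.46 (SE 0.17) in K354. At 48 h the log2 change of OsHsp24.1 against the control was -3.01 (SE 0.17) in C418 and -2.54 (SE 0.17) in K354. On the scale of the hybridization controls it went from -4.29 at 2 h to -3.82 at 48 h in C418. In K354 it went from -4.06 to -3.21 on that scale. On the scale of the poly-A controls it went from -4.23 to -4.31 in C418, which is no return, and from -3.94 to -3.74 in K354.

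In the order of the 12 group levels of OsHsp24.1, the C418 control stood first and the K354 control second, without overlap of their arrays. The 48 h groups of K354 and C418 came next and overlapped each other but not the 24 h group of K354 below them. The remaining 8 groups, from K354 at 24 h down to C418 at 12 h, each overlapped their neighbour in the order. One array of C418 at 24 h, replicate 3, read 170 beside 106 and 109 in the others.

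OsHsp16.0 encodes a small heat shock protein of peroxisomes. Its control arrays read 1549, 1551 and 1615 in C418 and 1164, 1181 and 1327 in K354. At 2 h the values were 109, 122 and 134 in C418 and 117, 144 and 186 in K354. The groups of control and cold did not overlap in either line.

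Unlike OsHsp24.1 on the deposited scale, OsHsp16.0 went on to lower values with each time of sampling up to 24 h. The log2 change in C418 was -3.70 (SE 0.15) at 2 h, -4.21 at 6 h, -4.86 at 12 h, -5.55 at 24 h and -5.55 at 48 h. In K354 it was -3.06 (SE 0.15) at 2 h, -3.60 at 6 h, -4.29 at 12 h, -4.50 at 24 h and -4.75 at 48 h. At 24 h the arrays read 30.6, 33.6 and 36.9 in C418 and 46.6, 57.2 and 59.3 in K354, all under the median of their array. At 48 h they were 32.3, 33.0 and 35.5 in C418 and 39.7, 43.5 and 54.7 in K354. The change in C418 at 48 h amounted to a 46.8-fold lower level, and that in K354 to a 26.8-fold lower level. The level at 48 h minus that at 2 h was -1.85 (SE 0.15) in C418 and -1.68 (SE 0.15) in K354 on the log2 scale. As deposited, this was of the opposite sign to OsHsp24.1. In C418 on the scale of the poly-A controls, OsHsp16.0 went from -3.71 at 2 h to -6.85 at 48 h. There OsHsp24.1 went from -4.23 to -4.31, so the signs were not opposite.

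In the order of levels of OsHsp16.0, both controls again stood first without overlap, and 6 of 11 neighbouring pairs overlapped. At each of the 5 times in the cold the mean of K354 lay above that of C418, whereas in the controls the order was reversed.

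OsHsp18.6 encodes a class III small heat shock protein. Its control arrays read 263, 301 and 334 in C418 and 500, 581 and 656 in K354. At 2 h they were 154, 189 and 263 in C418 and 421, 423 and 448 in K354. At 24 h they were 76.9, 79.3 and 99.0 in C418 and 166, 179 and 188 in K354. Its decline was thus mostly later than that of the former pair of genes, and the arrays of K354 stayed above those of C418 at each of these times.

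At 48 h the arrays of OsHsp18.6 read 63.6, 83.6 and 111 in C418 and 105, 156 and 179 in K354, the only condition in which the lines overlapped. The log2 change in C418 was -0.59 (SE 0.21) at 2 h, -0.57 at 6 h, -1.10 at 12 h, -1.82 at 24 h and -1.83 at 48 h. In K354 it was -0.42 (SE 0.21) at 2 h, -0.49 at 6 h, -0.86 at 12 h, -1.70 at 24 h and -2.01 at 48 h. By its type, the probe set used here can also detect other transcripts, and the gene has another pair of probe sets. One of these, specific by its name, had control arrays of 79.3, 95.7 and 99.5 in C418 and 136, 150 and 168 in K354. Its log2 change at 48 h was -1.16 (SE 0.13) in C418 and -1.32 (SE 0.13) in K354. At 2 h, however, it was -0.04 (SE 0.13) in C418 and -0.07 (SE 0.13) in K354, so this probe set showed no clear early fall. The other lay under the 25th percentile of its array in all 36 arrays, from 14.5 to 22.5, too dim for a change to be read.

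OsHsp26.2 encodes another small heat shock protein of mitochondria. In C418 its arrays read 75.3, 88.3 and 90.1 in the control, 100, 125 and 175 at 2 h, and 138, 161 and 191 at 6 h. They read 145, 195 and 212 at 12 h, 210, 224 and 284 at 24 h, and 214, 227 and 248 at 48 h. Every cold array of C418 was therefore above every control array of that line.

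In K354 the arrays of OsHsp26.2 read 41.7, 41.7 and 55.7 in the control, 29.2, 38.0 and 38.9 at 2 h, and 29.7, 32.4 and 40.9 at 6 h. They read 27.9, 39.5 and 44.4 at 12 h, 42.9 to 59.5 at 24 h, and 25.1, 29.3 and 47.2 at 48 h. All 18 lay below the median of their array, and 2 of those at 48 h lay below its 25th percentile. The lowest array of C418 in any condition, at 75.3, was above the highest of K354, at 59.5.

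The log2 change of OsHsp26.2 in C418 was 0.62 (SE 0.22) at 2 h, 0.94 at 6 h, 1.11 at 12 h, 1.49 at 24 h and 1.44 at 48 h. In K354 it was -0.39 (SE 0.22) at 2 h, -0.43 at 6 h, -0.33 at 12 h, 0.14 at 24 h and -0.49 at 48 h. On the scale of the hybridization controls the change in C418 at 48 h was 0.63, and on that of the poly-A controls 0.14, while in K354 it was -1.16 and -1.69. The 24 h change in K354 turned to -0.19 and -0.58 on those scales. By its type, the probe set of OsHsp26.2 can also detect other transcripts, and no second one was assigned to the gene.

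OsHsp17.8 and OsHsp21.9 were dim. OsHsp17.8 ranged from 28.0 to 34.1 in the 6 control arrays and from 29.9 to 54.1 in the 30 cold arrays, and no array of it reached its median. At 48 h it read 44.4, 48.3 and 50.3 in C418 and 39.6, 43.3 and 54.1 in K354, above all control arrays. Its log2 change at 48 h was 0.66 (SE 0.10) in C418 and 0.56 (SE 0.10) in K354 as deposited, but -0.15 and -0.11 on the scale of the hybridization controls and -0.64 in both lines on that of the poly-A controls.

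OsHsp21.9 ranged from 41.6 to 50.9 in the control arrays and from 43.9 to 76.5 in the cold. At 48 h it read 59.4, 66.2 and 76.5 in C418 and 61.8, 64.0 and 66.0 in K354. Its log2 change was 0.56 (SE 0.10) in C418 and 0.53 (SE 0.10) in K354 as deposited, but -0.26 and -0.14 on the scale of the hybridization controls and -0.75 and -0.67 on that of the poly-A controls. By its type, this probe set can also detect other sequences. The gene's other probe set, specific by its name, gave 0.13 (SE 0.12) in C418 and 0.31 (SE 0.12) in K354 at 48 h as deposited. In the order of levels, all 11 neighbouring pairs of OsHsp21.9 and 10 of 11 of OsHsp17.8 overlapped.

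Over the 60 cold changes, 26 were above 0 and 34 below as deposited, 11 and 49 on the scale of the hybridization controls, and 10 and 50 on that of the poly-A controls. At the brightest probe set, the changes of OsHsp16.0, OsHsp24.1 and OsHsp18.6 were below 0 at every time in both lines on all 3 scales. Those of OsHsp26.2 in C418 were above 0 on all 3. For OsHsp17.8 and OsHsp21.9 the sign at 12, 24 and 48 h was different on the deposited scale from that on both others, in both lines.

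**Figure D2:**
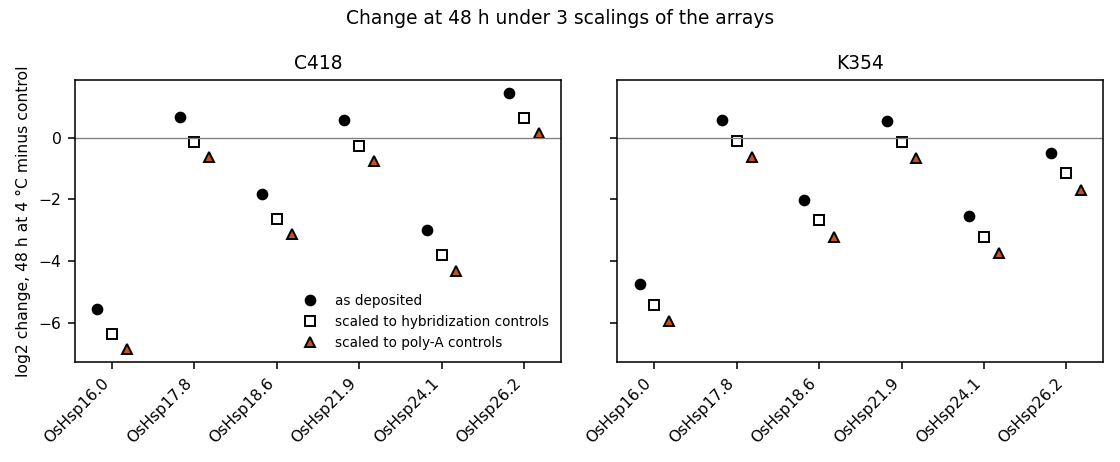
Log2 change at 48 h at 4 °C against the control of the line, for 6 genes in C418 (left) and K354 (right), as deposited (circles), scaled to the hybridization controls (squares) and scaled to the poly-A controls (triangles). OsHsp17.8 and OsHsp21.9 lie above 0 as deposited and below 0 on both other scales, and OsHsp26.2 in C418 goes from 1.44 to 0.63 and 0.14.

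The next comparison asked whether the lines differed in these genes in each condition. It was tested with limma over all 57258 probe sets, two-sided and with no minimum fold, at a Benjamini-Hochberg adjusted p under 0.05. Which contrast led to the choice of each gene is not recorded, so these p-values are not independent evidence of a difference. Most sequences of the array are japonica, and whether indica donor sequence in K354 altered the signal of any probe set was not tested. Of 36 differences between the lines, 14 were called: 6 of 6 for OsHsp26.2, 6 of 6 for OsHsp18.6, 2 of 6 for OsHsp16.0 and 0 of 18 for OsHsp17.8, OsHsp21.9 and OsHsp24.1. Of those 18, 4 had an unadjusted p under 0.05 in limma, and an unmoderated, unpaired test of each comparison alone called 2 unadjusted and 1 adjusted. Over the 36 the unmoderated test called 16 unadjusted and 10 after Benjamini-Hochberg adjustment. After adjustment it left out 6 of limma's 14 calls, with adjusted p of 0.053 for OsHsp26.2 in the control, 0.054, 0.067 and 0.35 for OsHsp18.6 at 2, 12 and 48 h, and 0.12 and 0.24 for OsHsp16.0 at 24 and 48 h. It called OsHsp16.0 in the control (0.047) and OsHsp24.1 at 6 h (0.045), which limma did not. Of all probe sets, the percentage called by limma was 9.47 in the control, 15.2 at 2 h, 18 at 6 h, 16.2 at 12 h, 11.4 at 24 h and 20.4 at 48 h.

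The signal of OsHsp26.2, from its single probe set, was lower in K354 in every condition. The log2 difference, K354 minus C418, was -0.88 (SE 0.22, limma adjusted p = 0.0075) in the control and -1.89 (SE 0.22, limma adjusted p = 1.3e-07) at 2 h. It was -2.25 at 6 h, -2.32 at 12 h and -2.23 at 24 h. At 48 h it was -2.81 (SE 0.22, limma adjusted p = 4.1e-11), a 7.02-fold lower level and the only one of the 36 differences that passed 5-fold. Since 2 of the 3 arrays of K354 in that comparison lay under the 25th percentile of their array, the exact fold is uncertain, and with values floored at that percentile the difference was -2.74. The arrays of the lines did not overlap in any of the 6 conditions.

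OsHsp18.6 was higher in K354 in every condition. Its log2 difference was 0.95 (SE 0.21, limma adjusted p = 0.0018) in the control, 1.13 at 2 h, 1.03 at 6 h, 1.19 (SE 0.21, limma adjusted p = 8.8e-05) at 12 h and 1.07 at 24 h. At 48 h it was 0.77 (SE 0.21, limma adjusted p = 0.0072), and without K354 48 h replicate 1 it was 0.61 with a limma adjusted p of 0.064, and without C418 48 h replicate 2 0.57 with 0.07. With the 6 arrays of 48 h fitted alone, the limma adjusted p was 0.14. The specific probe set of the gene was also higher in K354 in the 6 conditions, by 0.57 to 1.07 on the log2 scale (SE 0.13).

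OsHsp16.0 was higher in K354 at 24 h by 0.69 on the log2 scale (SE 0.15, limma adjusted p = 0.0021). At 48 h its difference was 0.44 (SE 0.15, limma adjusted p = 0.04), and this call was lost when any of 4 arrays at 48 h was left out. The adjusted p was 0.062 without K354 48 h replicate 1, 0.21 without K354 48 h replicate 2, 0.11 without C418 48 h replicate 1 and 0.089 without C418 48 h replicate 2. It was 0.16 with the 6 arrays of 48 h fitted alone and 0.054 after quantile normalization. In the control the difference was -0.36 (limma adjusted p = 0.17), and at 6 h it was 0.25 (0.28), or 0.47 with a limma adjusted p of 0.032 without K354 6 h replicate 3.

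OsHsp24.1 had log2 differences from -0.45 in the control to 0.42 at 24 h (SE 0.17), with limma adjusted p of 0.096 and 0.11. Without C418 24 h replicate 3, the array of that group at 170, the 24 h difference was 0.64 with a limma adjusted p of 0.0092 and that in the control passed at 0.049, and without K354 24 h replicate 2 the 24 h difference was 0.55 with 0.036. The differences of OsHsp17.8 lay between -0.07 and 0.08 (SE 0.10) and those of OsHsp21.9 between -0.29 and 0.09 (SE 0.10), and none was called. For OsHsp21.9 the 2 h difference, -0.26, became -0.36 with a limma adjusted p of 0.033 without K354 2 h replicate 2, and the 24 h difference, -0.29, became -0.37 with 0.034 without K354 24 h replicate 1. The 2 h difference also passed after quantile normalization (0.032) and on the scale of the hybridization controls (0.024), and the 24 h difference after quantile normalization (0.039), after median centring (0.029) and as the mean over the probe sets of the gene (0.033).

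**Figure D3:**
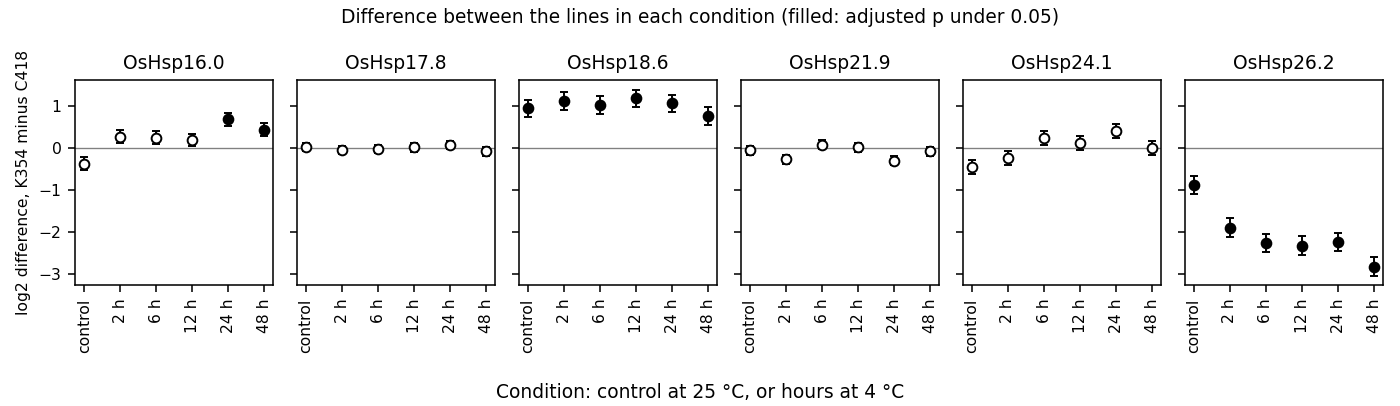
Log2 difference between the lines (K354 minus C418) with its standard error, for 6 genes in the control and after 2 to 48 h at 4 °C, from 3 arrays per group. Filled points have an adjusted p under 0.05. OsHsp26.2 is lower in K354 throughout, down to -2.81 at 48 h, and OsHsp18.6 is higher by 0.77 to 1.19.

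Whether the response to cold itself differed between the lines was tested as an interaction, in which the log2 change of C418 is subtracted from the one of K354. The 2 h values of OsHsp16.0 and OsHsp24.1, whose changes had been seen side by side before, are described only, at 0.64 (SE 0.22) and 0.22 (SE 0.23). The interactions are differences of cold changes that were in view when the genes were chosen, so they too are not independent evidence. Of the other 28 interactions, 6 were called by limma, 4 of OsHsp26.2 and 2 of OsHsp16.0. Of all probe sets, the percentage called was 1.62 at 2 h, 0.391 at 6 h, 1.76 at 12 h, 1.56 at 24 h and 7.88 at 48 h.

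The interaction of OsHsp26.2 was -1.01 (SE 0.31, limma adjusted p = 0.12) at 2 h, -1.37 (SE 0.31, limma adjusted p = 0.041) at 6 h, -1.44 (SE 0.31, limma adjusted p = 0.01) at 12 h, -1.35 (SE 0.31, limma adjusted p = 0.017) at 24 h and -1.94 (SE 0.31, limma adjusted p = 0.00014) at 48 h. Without C418 2 h replicate 1 the 2 h value was -1.20 with an adjusted p of 0.045. The calls at 12 h and 48 h held whichever of the 36 arrays was left out. That at 6 h was lost for 13 of the 36 arrays, namely the 6 control arrays, K354 6 h replicates 1 and 3, C418 6 h replicates 1 and 2, C418 2 h replicate 2, C418 12 h replicate 3 and C418 48 h replicate 3, with values of -1.44 to -1.23 and adjusted p up to 0.16. That at 24 h was lost without K354 control replicate 3 (-1.21, adjusted p 0.065), without C418 control replicate 2 (-1.27, adjusted p 0.057) and without C418 24 h replicate 2 (-1.22, adjusted p 0.061). On the scale of the poly-A controls the 6 h and 24 h values were -1.20 and -1.14, with limma adjusted p of 0.15 and 0.092.

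The interaction of OsHsp16.0 was 0.62 (limma adjusted p = 0.4) at 6 h, 0.56 (limma adjusted p = 0.23, or 0.03 with the groups fitted alone) at 12 h, 1.05 (SE 0.22, limma adjusted p = 0.006) at 24 h and 0.80 (SE 0.22, limma adjusted p = 0.018) at 48 h. By these estimates the fall from the control was less deep in K354, and with all arrays in 1 model only those at 24 and 48 h were called. The difference between the lines in the control, -0.36 and not called by limma, enters each of them. At 48 h the interaction was 0.67 with a limma adjusted p of 0.063 without K354 48 h replicate 2. OsHsp24.1 had 0.87 (SE 0.23, limma adjusted p = 0.056) at 24 h, which did not pass. It passed when any of 7 of the 36 arrays was left out, with 1.09 and an adjusted p of 0.0064 without C418 24 h replicate 3, an adjusted p of 0.016 without K354 24 h replicate 2, and 0.96 and 0.049 without K354 control replicate 3. The value stayed at 0.87, with adjusted p of 0.024 to 0.047, without K354 48 h replicate 1 or 2 or C418 2 h replicate 1 or 3. On the scale of the hybridization controls it was 1.01 (limma adjusted p 0.027) and on that of the poly-A controls 1.08 (0.047). It also passed with the floor (0.043) and the filter on dim probe sets (0.034). It did not pass after quantile normalization or median centring, with the replicate block or with the groups fitted alone. Of the 15 interactions of OsHsp17.8, OsHsp18.6 and OsHsp21.9, 0 were called by limma, 0 had an unadjusted p under 0.05 either, and the values of OsHsp18.6 lay between -0.18 and 0.24 (SE 0.29).

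The 6 genes lie on chromosome 2 (OsHsp17.8, OsHsp18.6 and OsHsp24.1), chromosome 6 (OsHsp16.0 and OsHsp26.2) and chromosome 11 (OsHsp21.9). Of the 20 measured genes nearest to OsHsp26.2 along the chromosome, 7 differed between the lines in the control arrays, and 7 of the 20 nearest to OsHsp16.0. The same count was 1 for OsHsp18.6, 0 for OsHsp17.8, 4 for OsHsp24.1 and 3 for OsHsp21.9, beside 12.7% of all 17905 genes taken at their brightest probe set. The part of these neighbourhoods in the line differences was not tested.

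Over the 12 group means, which share controls within a line, OsHsp16.0 and OsHsp24.1 had a Pearson correlation of 0.82 and OsHsp17.8 and OsHsp21.9 of 0.84. The latter pair was dim, and its cold changes depended on the scale, as given above. The lowest values were -0.77 for OsHsp18.6 and OsHsp21.9 and -0.75 for OsHsp16.0 and OsHsp21.9, and OsHsp26.2 and OsHsp18.6 had -0.72. Among 2148 named genes above the array median in all arrays of some group, the pair most like OsHsp16.0 was OsHsf-24, a heat stress factor (0.983), and HSP81-1, an HSP90 (0.980). For OsHsp24.1 it was PRMT1, a protein arginine methyltransferase (0.966), and OsHsp17.4, a class I small heat shock protein (0.962). For OsHsp26.2 it was OsC3H49, of the CCCH zinc finger type (0.987), and AOS3, an allene oxide synthase (0.953). The mean log2 intensity of OsC3H49 was 8.99 in the C418 control and 10.20 at 48 h, but 7.52 and 7.33 in K354. For OsHsp18.6 it was NAR2.2 (0.963) and NEDD8, a ubiquitin-like modifier (0.962), for OsHsp17.8 IAA19 (0.960) and 4CLL4 (0.957), and for OsHsp21.9 OsSPS3F (0.898) and OsUEL-3 (0.894).

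The other small heat shock protein genes had smaller changes than OsHsp16.0 and OsHsp24.1. Since that pair was chosen with its cold changes in view, this contrast says nothing about the family as a whole. Of 13 genes, 6 were lower and 0 higher at 2 h in C418, and 6 lower and 0 higher in K354, by limma at an adjusted p under 0.05, and 0 were higher by unadjusted p or by the unmoderated test. At 48 h, 5 were lower and 2 higher in C418, and 6 lower and 0 higher in K354, where 1 was higher by unadjusted p and 0 by the unmoderated test. Of all probe sets, 21.7% were lower and 7.02% higher at 2 h in C418, 20.2% and 6.79% at 2 h in K354, 28.3% and 25.1% at 48 h in C418, and 27.1% and 23.5% at 48 h in K354. The median log2 change of the 13 genes was -0.25 and -0.38 at 2 h in C418 and K354, and 0.09 and -0.25 at 48 h, beside -0.13, -0.12, -0.02 and -0.03 over all probe sets. Over these 4 comparisons, 23 of 52 values were lower and 2 higher, against 34 and 0 on the scale of the hybridization controls and 35 and 0 on that of the poly-A controls.

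OsHsp17.4, OsHsp17.9A, OsHsp22.3 and OsHsp26.7 were named for the largest mean cold changes of their list, so their p-values are not independent evidence. OsHsp17.4, of class I, fell at 2 h, its log2 change being -1.74 (SE 0.18, limma adjusted p = 2.6e-08) in C418 and -1.83 in K354. At 48 h it was -0.51 (SE 0.18) and -1.04 (SE 0.18). On the deposited scale the gene was thus nearer to its control later on, as OsHsp24.1 was. On the scale of the poly-A controls OsHsp17.4 was not nearer to its control at 48 h in either line. The call in C418 at 48 h was lost without C418 48 h replicate 1 (-0.43, limma adjusted p 0.081) or C418 control replicate 1 (-0.48, limma adjusted p 0.055). OsHsp17.9A fell, with log2 changes of -1.68 and -1.33 at 2 h (SE 0.19) and -1.09 and -1.44 at 48 h. OsHsp22.3, of class VI, had -0.25 and -0.38 at 2 h, which did not pass with all arrays (K354 passed with -0.55 and a limma adjusted p of 0.037 without K354 control replicate 3), and fell at 48 h, with -2.34 (SE 0.18, limma adjusted p = 2.8e-12) and -1.82. OsHsp26.7, of chloroplasts, fell, with -0.57 and -0.70 at 2 h (SE 0.16) and -0.62 and -0.39 at 48 h. Its call in C418 at 2 h was lost without C418 control replicate 3 (-0.46, limma adjusted p 0.053), and that in K354 at 48 h without K354 48 h replicate 1 (-0.25, limma adjusted p 0.23), K354 control replicate 2 or K354 control replicate 3 (both -0.35 and 0.12).

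The pair called higher in C418 at 48 h, named after its values were seen, was OsHsp18.1 (0.62, SE 0.19) and OsHsp23.2 (0.48, SE 0.16) as deposited. The signs turned on the scale of the hybridization controls, to -0.19 for OsHsp18.1 and -0.33 for OsHsp23.2, and on that of the poly-A controls, to -0.68 and -0.82. The call of OsHsp23.2 was also lost without C418 48 h replicate 3 (0.31, limma adjusted p 0.13) or C418 control replicate 2 (0.41, limma adjusted p 0.062).

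Heat stress factors are transcription factors that bind heat shock elements of chaperone genes. Of 20 with a probe set, 7 were lower and 5 higher at 2 h in C418, and 10 lower and 3 higher in K354. At 48 h, 10 were lower and 7 higher in C418, and 8 and 8 in K354. The shares of all probe sets were, as above, 21.7% lower and 7.02% higher at 2 h in C418, 20.2% and 6.79% at 2 h in K354, 28.3% and 25.1% at 48 h in C418, and 27.1% and 23.5% at 48 h in K354. The median log2 change was -0.14 and -0.23 at 2 h and -0.26 and -0.12 at 48 h, beside -0.13, -0.12, -0.02 and -0.03 over all probe sets. Over the 4 comparisons, 35 of 80 values were lower and 23 higher, against 44 and 17 on the scale of the hybridization controls and 43 and 17 on that of the poly-A controls.

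OsHsf-07 and OsHsf-03 were named for the largest mean cold changes among these factors, so their p-values are not independent evidence. OsHsf-07 rose by 2.70 on the log2 scale (SE 0.28, limma adjusted p = 2.5e-08) at 2 h in C418, beside 0.23 (limma adjusted p = 0.58) in K354, and rose in both lines at 48 h, by 5.41 and 5.30. OsHsf-03 rose by 1.45 and 0.85 (SE 0.17) at 2 h and, at the last time, by 5.07 and 5.41. In the other direction OsHsf-24, named above for its likeness to OsHsp16.0, fell, with log2 changes of -2.71 and -2.33 (SE 0.16) at 2 h and -3.62 and -3.20 at 48 h.

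The list of ATP-dependent chaperones and J proteins, which are co-chaperones of HSP70, held 13 genes. They were 2 HSP70s, both BiP genes, 3 HSP90s, 3 of the HSP100 family and 5 J proteins, so other HSP70s are not covered. At 2 h, 7 were lower and 0 higher in each line by limma, where 0 were higher by unadjusted p. By the unmoderated test unadjusted, 1 was higher in K354. Of all probe sets, 21.7% were lower in C418 and 20.2% in K354 at that time, and 7.02% and 6.79% higher. At 48 h, 7 were lower and 4 higher in C418, and 8 lower and 2 higher in K354, beside 28.3% and 25.1% of all probe sets in C418 and 27.1% and 23.5% in K354. Their median log2 change was -0.37 and -0.34 at 2 h and -0.52 and -0.72 at 48 h, beside -0.13, -0.12, -0.02 and -0.03 over all probe sets. Over the 4 comparisons, 29 of 52 values were lower and 6 higher, against 37 and 1 on the scale of the hybridization controls and 36 and 1 on that of the poly-A controls.

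Except for CLPB1, the genes below were named by the size of their mean cold change within their family. Their p-values are therefore not independent evidence. BIP1, an HSP70 of the endoplasmic reticulum, fell, with log2 changes of -1.58 (SE 0.15, limma adjusted p = 2.5e-09) and -1.62 at 2 h and -2.22 and -2.38 at 48 h. HSP81-1, an HSP90, fell, with -0.98 and -0.93 (SE 0.14) at 2 h and -1.49 and -1.45 at 48 h. Its relative HSP81-2 rose by 0.16 (SE 0.06, limma adjusted p = 0.023) at 48 h in C418 as deposited, but had -0.66 on the scale of the hybridization controls and -1.15 on that of the poly-A controls, and its call was lost without C418 48 h replicate 2 (0.14, limma adjusted p 0.074) or C418 control replicate 1 (0.15, limma adjusted p 0.067). CLPB-M, of the HSP100 family, fell, with -1.62 and -1.57 (SE 0.16) at 2 h and -0.52 and -0.72 at 48 h. Its call in C418 at 48 h was lost without C418 48 h replicate 2 (-0.28, limma adjusted p 0.11), with the groups fitted alone (limma adjusted p 0.073) and by the unmoderated test (0.2 adjusted). CLPB-C fell, with -1.11 and -0.80 (SE 0.09) at 48 h. The third of the family, CLPB1, named after its values were seen, had -0.08 and -0.20 in C418 and K354 at 2 h and was called higher at 48 h as deposited, with 1.76 and 0.96 (SE 0.18). In K354 this became 0.29 (limma adjusted p 0.18) on the scale of the hybridization controls and turned to -0.24 on that of the poly-A controls. Of the J proteins, DJC27 fell at 48 h, with -2.40 and -2.17 (SE 0.18), and so did DJB6, with -0.88 and -1.11 (SE 0.11).

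**Figure D4:**
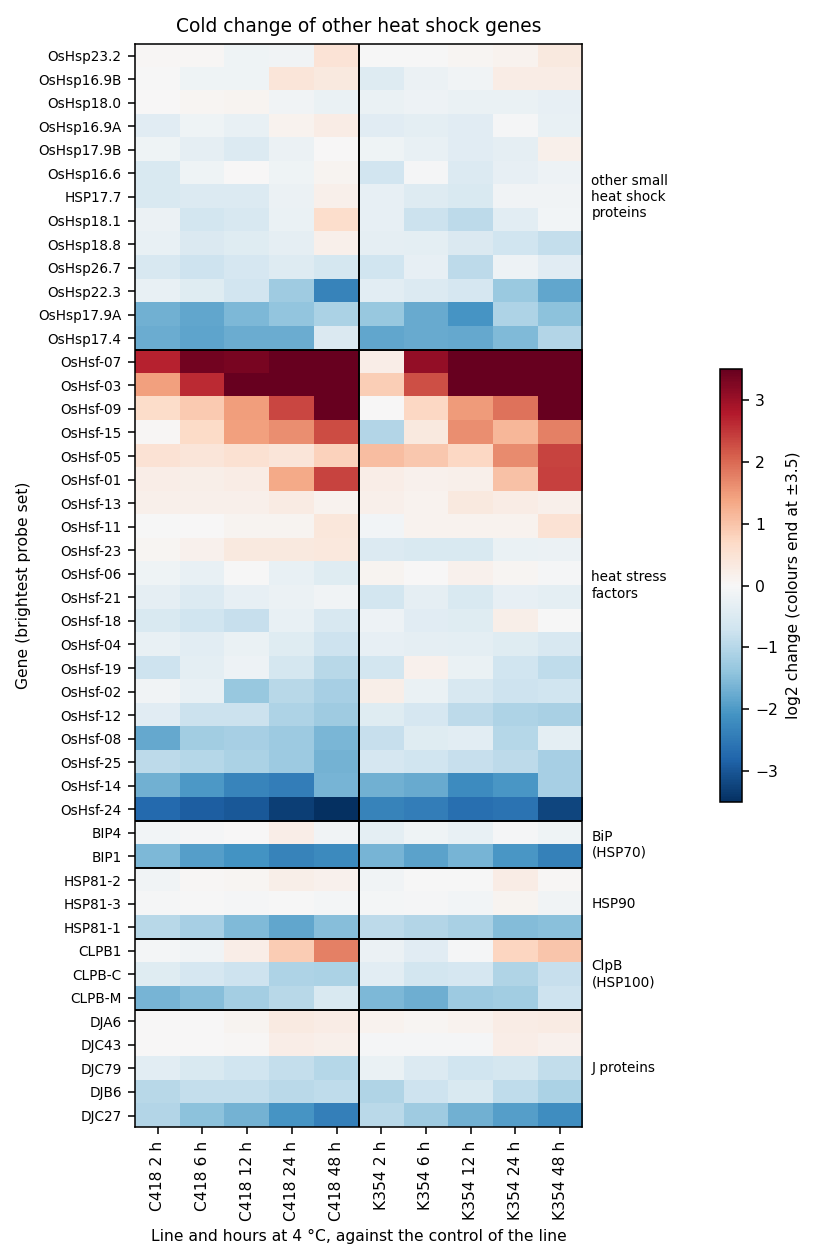
Log2 change against the control of the line after 2 to 48 h at 4 °C, in C418 (left) and K354 (right), for the other small heat shock proteins, heat stress factors and further chaperones, each at its brightest probe set and ordered within its list by the mean change. Red is higher and blue lower, with colours ending at 3.5 in either direction. OsHsf-07 and OsHsf-03 reach 5.41 and 5.07 in C418 at 48 h and OsHsf-24 reaches -3.62, while the small heat shock proteins stay between -2.34 and 0.62 there.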

How the data were processed

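Shoots of C418 and K354 were profiled on Affymetrix rice genome arrays, 3 per group in 12 groups. The values the authors deposited are linear intensities, already normalized, for 57381 probe sets. The labels name MAS5 without a version, and the methods name GCOS and the invariant-set method of dChip, so which of them set the scale is not known. The lowest value was 1 on each array. No column was left unmapped.

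The array's own controls, 123 probe sets, were left out, and 57258 were tested with no filter. The platform table paired 22436 probe sets with a single gene, 95 with several and 34727 with none. Symbols were updated from RefSeq. The 6 genes and all lists were chosen with earlier results of these data known. Lists were found by symbol or synonym, since the tables hold no product names, and chaperonins and other co-chaperones had no match. The HSP70 list held only BiP genes. Named genes were the 6, up to 4 others of each list by the mean of 10 cold changes, and the pair most alike to each of the 6.

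On the log2 scale, 1 model of 12 groups was fitted in R 4.3.3 with lmFit and eBayes of limma 3.58.1, and adjusted p-values are Benjamini-Hochberg values over all tested probe sets. Folds come from means of logs, and no group of the 6 genes had all 3 arrays under the 25th percentile, the condition set for a lower bound. Python 3.11.15, numpy 2.4.6, pandas 2.3.3 and matplotlib 3.10.9 served for tables and figures. The fit was checked on simulated data. Alternatives were other normalizations, scaling to control RNAs, a floor and a filter on dim probe sets, the groups compared alone, a replicate block, an unmoderated, unpaired test of each comparison alone, a 5-fold minimum, means over probe sets, arithmetic means and leaving out each array. The number of arrays limits the precision. The study's methods used SAM with a 5-fold minimum, and SAM was not run here. Promoter and protein sequences were not analysed here.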

Additional observations from a re-analysis of the deposited data

Results flagged for a closer look

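The cold response differed between the lines, by limma's test of the interaction, in 6 of 28 values tested for these genes, beside 0.391% to 7.88% of all probe sets at a time. The genes had been chosen with their cold changes in view, so this is no independent evidence. For OsHsp26.2 the response of K354 minus that of C418 was -1.37 at 6 h, -1.44 at 12 h, -1.35 at 24 h and -1.94 at 48 h on the log2 scale. With 1 of the 36 arrays left out, the call at 6 h was lost in 13 cases and that at 24 h in 3. For OsHsp16.0 it was 1.05 at 24 h and 0.80 at 48 h, the latter lost in 1 case. At 48 h the log2 change of OsHsp26.2 was 1.44 in C418 and -0.49 in K354, and that of OsHsp16.0 was -5.55 and -4.75. Groups of 3 arrays are too small for a test of single outlying arrays.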

How the results depend on the processing

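Leaving out each of the 36 arrays in turn gave 12 to 16 calls between the lines (14 with all arrays), 4 to 8 called interactions (6) and 20 to 20 changes more than 5-fold lower (20). In the lists it gave 21 to 25 lower (23) and 1 to 3 higher (2) values of other small heat shock proteins, 33 to 35 lower (35) and 22 to 24 higher (23) of heat stress factors, and 27 to 29 lower (29) and 4 to 7 higher (6) of chaperones. The replicate number as a block left 14 calls between the lines, 6 interactions and 20 changes. In the lists the replicate block gave 23 lower and 2 higher, 34 lower and 23 higher, and 28 lower and 5 higher values. Residuals of arrays that share a replicate number correlated at 0.00287 on average, and those of other arrays at -0.00132, so the numbers were not taken as pairs.

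With a minimum fold of 5, or the unmoderated test with that fold, unadjusted or adjusted, 1 difference between the lines stayed, that of OsHsp26.2 at 48 h, and in the lists 1 lower and 0 higher small heat shock proteins, 4 lower and 10 higher heat stress factors, and 2 lower and 0 higher chaperones. Higher small heat shock proteins (2 in all) were 0 on either control scale, 1 with the filter on dim probe sets, 1 with the groups compared alone, 1 with the adjusted unmoderated test and 4 as means over probe sets, and lower ones were 35 on the poly-A scale. Higher chaperones were 1 on either control scale and 3 with the groups compared alone.

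Signs turned on the control scales for OsHsp17.8 (hybridization controls -0.22 and -0.15 in C418 after 24 and 48 h, -0.02 and -0.11 in K354; poly-A controls -0.67 and -0.64 in C418, -0.41 and -0.64 in K354), OsHsp21.9 (-0.06 and -0.26 in C418 and -0.14 at 48 h in K354; poly-A -0.51, -0.75 and -0.67), HSP81-2 at 48 h (-0.66 and -0.63; poly-A -1.15 and -1.16), OsHsp18.1 in C418 at 48 h (-0.19; poly-A -0.68), OsHsp23.2 at 48 h (-0.33 in C418; poly-A -0.82 in C418 and -0.87 in K354) and CLPB1 in K354 at 48 h (poly-A -0.24). Of 118 called values of the lists, 10 turned sign on the scale of the hybridization controls and 11 on that of the poly-A controls. Control RNAs moved with hours of cold, and their part in these signs was not tested. Among the genes named here, 99 further turns of sign under some alternative were of values with a limma adjusted p not under 0.05. These included cold changes of the 6 genes. For the cold changes of the 6 genes, p-values were computed along with the others but are not reported. The genes were chosen with those changes in view.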
